A study of Mus musculus with 12 samples.

Results

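Clcn5, Maged2 and Zfp275 are 3 genes of the mouse X chromosome, selected on their reference shares in MidK2: an earlier reading of these data showed more reads of the reference allele for them at days 22 and 29 of this reprogramming course than at its days 18 and 36. They are 3 of 399 genes with at least 1 single-base variant site covered by 20 or more reads in some library. They hold 48 of the 6478 such sites, 24 in Clcn5, 14 in Maged2 and 10 in Zfp275. The MidK2 values chose the genes, so they are given as a description with no test, while the LowK, MidK1 and MEF libraries did not enter that choice and were tested.

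The series holds poly(A) RNA from mouse embryonic fibroblasts (MEF1 and MEF2, day 0, no vector and no agent) and from cells reprogrammed with the Sendai virus vector SeVdp(fKOSMaB). LowK (days 35, 52 and 56) had the vector and no agent. MidK1 (days 35, 52 and 56) and MidK2 (days 18, 22, 29 and 36) had the vector and 30 nM Shield1, a small molecule that protects proteins fused to a destabilising domain from degradation. No source used here states the sex, the strains, the parent behind each allele or the starting fibroblasts of each course. Each course and day is 1 library, so every test below compares libraries and none measures the spread between cultures.

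In female cells 1 of the 2 X chromosomes is silenced early in development, and RNA of a subject gene then comes from the other copy. Reprogramming to pluripotency can switch the silent copy back on, which shows as reads of the second allele. Clcn5 encodes an endosomal chloride and proton exchanger needed for endosome acidification, Maged2 a member of the MAGE family known for its role in salt transport in the fetal kidney, and Zfp275 a zinc finger protein. At most listed sites of the 3 genes fibroblast RNA carried mainly the variant allele, so the measure followed here is the reference share, the percentage of reads over a site that do not carry the variant.

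Clcn5 (ENSMUSG00000004317, X:7153810-7319358, minus strand, mm10) was read with at least 20 reads only at sites in its 3′ untranslated region, and Zfp275 (ENSMUSG00000031365, X:73342621-73359080, plus strand) likewise. Listed coding sites of these 2 genes had fewer reads, such as Clcn5 X:7161767 with 4 of 10 reference reads in MidK1 at day 56. Maged2 (ENSMUSG00000025268, X:150806370-150814345, minus strand) was read at 13 coding sites and 1 site in its 5′ untranslated region. Of its coding sites 8 were synonymous and 5 non-synonymous. The sequences below show the alleles that the reads tell apart. For each gene they are the 2 sites with the highest summed MidK2 coverage among sites listed in all 4 MidK2 libraries and at least 90% variant in fibroblasts. Each is 29 bases of the transcript strand from GENCODE M21, with the site in capitals, first with the reference and then with the variant base.
Clcn5 X:7155057-7155057, reference: tggtagtgttcagcGttgccgtcaagtag
Clcn5 X:7155057-7155057, variant: tggtagtgttcagcCttgccgtcaagtag
Clcn5 X:7154252-7154252, reference: gtggcttactgctcGctctgctctgctca
Clcn5 X:7154252-7154252, variant: gtggcttactgctcActctgctctgctca
Maged2 X:150807674-150807674, reference: aagtacctggactaTgccagagtacccaa
Maged2 X:150807674-150807674, variant: aagtacctggactaCgccagagtacccaa
Maged2 X:150812135-150812135, reference: aaggccccagaggcGtctgaggcagctgc
Maged2 X:150812135-150812135, variant: aaggccccagaggcTtctgaggcagctgc
Zfp275 X:73358392-73358392, reference: gttgggctgcttccCgagaagattctcat
Zfp275 X:73358392-73358392, variant: gttgggctgcttccTgagaagattctcat
Zfp275 X:73358288-73358288, reference: tccccagcatagacGcctcccctcccctg
Zfp275 X:73358288-73358288, variant: tccccagcatagacAcctcccctcccctg
Both Maged2 sites are synonymous. The Zfp275 sites lie 104 bases apart, so 1 sequenced fragment can cover both, and their reads are not independent.

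The libraries held 1507 to 3871 single-base sites with at least 20 reads and 138579 to 279031 reads over them. The tables list a position only where the variant was called, so a site read from the reference allele alone is missing. The lowest listed values were 5 variant reads and about 10% in MEF1, LowK and MidK1, and 2 reads and 5% in MEF2 and MidK2. From these minima the first set was taken to have stricter caller limits, which no source used here states. This bears on the 3 genes directly. Of their 48 sites, 13 were listed in 1 library alone, 5 in Clcn5, 7 in Maged2 and 1 in Zfp275. Over all single-base sites, 21.4% were listed in 1 library, so such listing was not particular to the 3 genes. All 13 rested on 2 or 3 variant reads and had reference shares of 85.7 to 94.8%. Summed with the other sites, they raise the share of the gene in the library that lists them. The shares over all listed sites are therefore given beside those at fibroblast-variant sites, where the variant share was at least 90% in every MEF library that listed the site with at least 10 reads. That site class was defined after the values were seen.

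Maged2 showed the course most clearly. At X:150807674, its only site with at least 20 reads in all 4 MidK2 libraries, 1 of 37 reads carried the reference allele at day 18, 20 of 32 at day 22, 12 of 22 at day 29, then 1 of 26 at day 36. In MEF2 it was 0 of 173 reads, which allows a share of up to 1.73%. Days 22 and 29 were thus high and days 18 and 36 low, with reference shares of 62.5% and 54.5% against 2.70% and 3.85%. The mean of days 22 and 29 was 55.2 percentage points above the mean of days 18 and 36.

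At the 4 Maged2 sites that all MidK2 libraries list with at least 10 reads, both middle days were above both outer days at 4 of 4, while the order within each pair of days differed between sites. At X:150809741 the reference reads were 1 of 16 at day 18, 17 of 21 at day 22, 13 of 19 at day 29, then 0 of 13 at day 36. At X:150812135 they were 5 of 12, 15 of 24, 12 of 18 and 4 of 23 in the same order. At X:150812225 they were 3 of 16, 12 of 22, 8 of 15 and 2 of 13. Over the 4 sites the share was 12.3% (95% Wilson interval 6.85 to 21.3, 81 reads) at day 18, 64.6% (54.8 to 73.4, 99 reads) at day 22, 60.8% (49.4 to 71.1, 74 reads) at day 29 and 9.33% (4.59 to 18.0, 75 reads) at day 36. These intervals cover counting error only, since reads carry no molecular identifiers. MEF2 stood at 0.509% (0.173 to 1.49, 589 reads) over these sites.

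**Figure D1:**
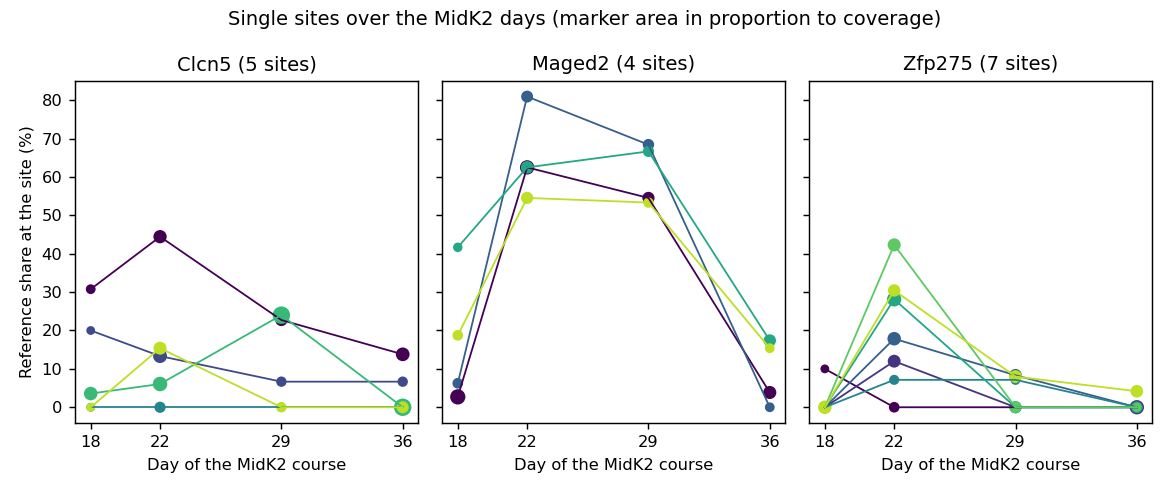
Reference share (%) at single fibroblast-variant sites over the MidK2 days, for sites with at least 10 reads in all 4 libraries. Each line is 1 site and the marker area follows its coverage. All 4 Maged2 sites are high at days 22 and 29, with 53.3 to 81.0%, while the Clcn5 and Zfp275 sites differ among themselves.

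Over these days Maged2 reference reads were high where variant reads were low, and their sum differed less. Scaled to 100000 X-linked site reads of the library, reference reads over the 4 sites went from 4.72 at day 18 to 27.5 at day 22 and 21.9 at day 29, then 2.51 at day 36. Variant reads went from 33.5 to 15.1 and 14.1, then 24.4. Their sum was 38.2, 42.6, 36.0 and 26.9. In MEF2 the same sites held 279 reads per 100000, 6.56 to 10.4 times the level of the MidK2 libraries. Fewer cells with Maged2 RNA and less RNA per cell cannot be told apart in bulk RNA.

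**Figure D2:**
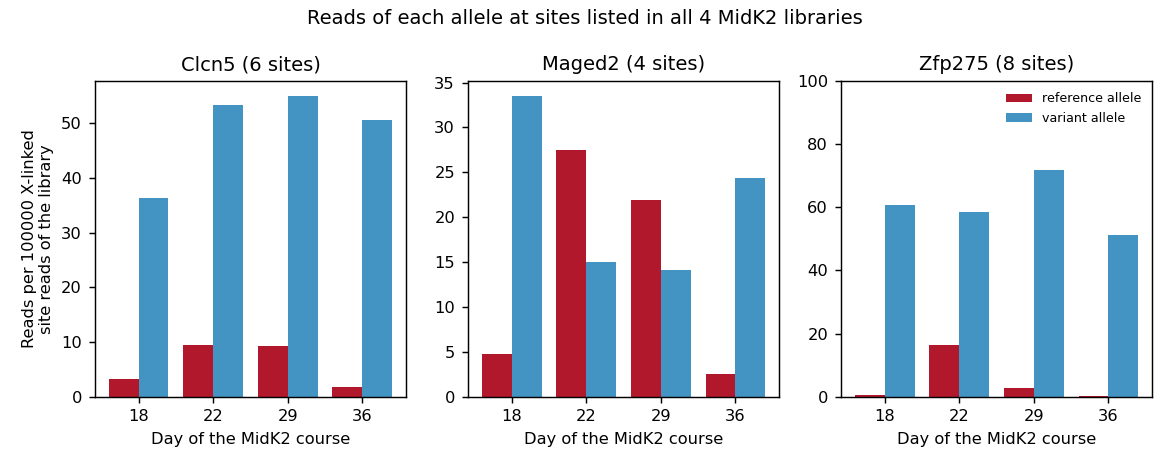
Reads of the reference and variant allele per 100000 X-linked site reads, over sites with at least 10 reads in all 4 MidK2 libraries, by day. Maged2 reference reads exceed variant reads at days 22 and 29 only, and in Clcn5 and Zfp275 the variant allele leads on every day.

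Over all its listed sites with at least 20 reads, Maged2 had 60.0% at day 18 (135 reads), 75.1% at day 22 (221), 80.8% at day 29 (73) and 33.8% at day 36 (71), and 17.3% in MEF2 (816). Days 22 and 29 were again the highest, but day 18 stood far above the 2.70% (37 reads) of its fibroblast-variant sites. X:150806908, at 89 of 94 reference reads in MEF2, adds to the sums of MEF2 and days 18 and 36. X:150806874, at 49 of 95 reads in MEF2, adds to those of MEF2 and days 18 and 22. It lies within a 6-base deletion listed at X:150806869-150806874. The day 29 sum held neither, but X:150807016 (22 of 24 reference reads) and X:150811138 (25 of 27), each listed in that library alone. Days 18 and 22 held such sites too, among them X:150811856 (22 of 24) at day 18 and X:150806861 (32 of 34) at day 22. At fibroblast-variant sites with at least 20 reads the shares were 64.6% at day 22, 54.5% at day 29 and 10.2% at day 36.

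The tables also list a 3-base deletion in the Maged2 untranslated region at X:150806528-150806530, read from the same libraries as the sites above. Reads without the deletion were 10 of 79 in MEF2 (12.7%, 7.02 to 21.8), 9 of 45 at day 18 (20%, 10.9 to 33.8), 14 of 32 at day 22 (43.8%, 28.2 to 60.7), 11 of 15 at day 29 (73.3%, 48.0 to 89.1) and 9 of 21 at day 36 (42.9%, 24.5 to 63.5). Day 29 was again high. Day 36 was as high as day 22 here, unlike at the 4 single-base sites, with wide intervals. In the other set, MEF1 had 16 of 71, LowK had 5 of 19 (day 35) and 7 of 13 (day 56), and MidK1 had 5 of 17 (day 35) and 6 of 12 (day 56).

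The other listed insertions and deletions of the 3 genes did not share 1 course. Reads without the 6-base Maged2 deletion were 51.6% at day 18 (31 reads), 88.6% at day 22 (35), 61.5% at day 29 (13) and 68.4% at day 36 (19), with 60.5% in MEF2 (119) and 71.5% in MEF1 (123), so day 22 alone stood high. In Clcn5, reads without the 3-base deletion at X:7155098-7155100 were 30.3%, 36.7%, 49.1% and 20.5% on the 4 days (33, 30, 53 and 73 reads), with both middle days highest, against 15.6% in MEF2 and 41.7% in MEF1. Reads without the insertion after X:7155323 were 0%, 15.8%, 23.8% and 4.76% (13, 19, 21 and 21 reads), also highest on the middle days, but MEF2 and MEF1 each had 33.3%. Reads without the 1-base deletion at X:7155147 were 33.3%, 35.7%, 54.8% and 61.5% (18, 28, 31 and 52 reads), highest at day 36, and those without the 4-base deletion at X:7154192-7154195 were 62.5%, 54.5%, 64.5% and 51.4% (24, 22, 31 and 37 reads). Both Zfp275 deletions were listed in MidK2 at days 18, 22 and 36 only. Day 22 was lowest at X:73355987-73355988, with 33.3%, 9.52% and 20% of 15, 21 and 10 reads, and highest at X:73356621, with 6.25%, 18.8% and 11.1% of 16, 16 and 18 reads.

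**Figure D3:**
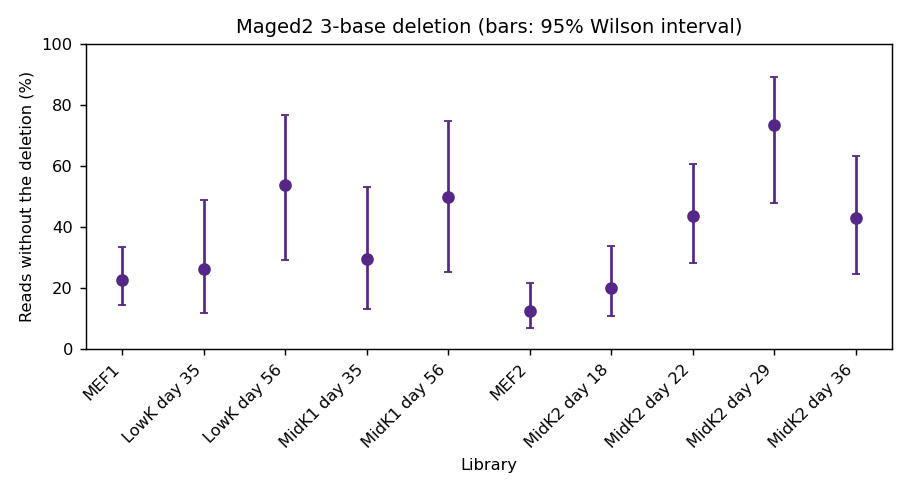
Percentage of reads without the Maged2 3-base deletion in each library that lists it, with 95% Wilson intervals. MidK2 day 29 is highest at 73.3% from 15 reads, and MEF2 lowest at 12.7% from 79 reads.

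Clcn5 had smaller differences, and its sites differed among themselves. At X:7155057, its single site with at least 20 reads in all 4 libraries, reference reads were 1 of 28 at day 18, 2 of 33 at day 22, 12 of 50 at day 29, then 0 of 50 at day 36, with 0 of 46 in MEF2. At this site day 29 alone was high. At X:7154252 the reference reads were 4 of 13, 12 of 27, 5 of 22 and 4 of 29, so day 22 was highest there. Of 5 fibroblast-variant sites with at least 10 reads in every MidK2 library, 1 had both middle days above both outer days, and 2 were highest at day 22 and 1 at day 29. X:7154771 was highest at day 18, with 2 of 10, 4 of 30, 1 of 15 and 1 of 15 reference reads. X:7154791 had no reference read on any of the 4 days.

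Summed over all its fibroblast-variant sites with at least 10 reads, Clcn5 had a reference share of 8.64% at day 18 (4.25 to 16.8, 81 reads over 6 sites), 15.8% at day 22 (12.1 to 20.3, 298 reads over 15 sites), 16.7% at day 29 (12.9 to 21.3, 300 reads over 16 sites) and 2.07% at day 36 (1.09 to 3.88, 435 reads over 22 sites). MEF2 had 1.79% (0.946 to 3.37, 502 reads). Over all listed sites with at least 20 reads the shares were 3.57% (28 reads, 1 site), 26.5% (249), 40.4% (188) and 20.7% (348), with 21.9% (526) in MEF2. The sums of day 36 and MEF2 held mostly-reference sites, such as X:7155100 with 66 of 72 reference reads at day 36, a position inside a listed 3-base deletion at X:7155098-7155100. Days 22 and 29 held such sites too, X:7155292 with 28 of 30 and X:7154168 with 34 of 37 reference reads, each listed in 1 library. Fibroblast-variant sites with at least 20 reads gave 17.5% at day 22, 27.8% at day 29, 2.79% at day 36 and 2.34% in MEF2.

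For Zfp275 the label of a gene high at days 22 and 29 was borne out at day 22 alone. At X:73358392 the reference reads were 0 of 28 at day 18, 7 of 23 at day 22, 2 of 25 at day 29, then 1 of 24 at day 36, with 0 of 16 in MEF2. At X:73358288 they were 0 of 18, 9 of 32, 0 of 23 and 0 of 19. Day 22 stood out at both. Of 7 fibroblast-variant sites with at least 10 reads on all 4 days, 5 were highest at day 22 and none at day 29, and 3 had both middle days above both outer days.

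Over the fibroblast-variant sites of Zfp275 with at least 10 reads, the share was 1.30% at day 18 (0.357 to 4.61, 154 reads), 20.2% at day 22 (15.04 to 26.6, 183 reads), 3.68% at day 29 (1.58 to 8.32, 136 reads) and 2.52% at day 36 (0.983 to 6.29, 159 reads). MEF2 had 2.72% (1.17 to 6.20, 184 reads). Day 22 was high and the other days were near the MEF2 level. The day 22 sum leaned on 1 short stretch. Reference reads there were 9 of 32 at X:73358288, 11 of 26 at X:73358310 and 7 of 23 at X:73358392, within 104 bases. The other sites of that sum ranged from 0% (X:73356656, 16 reads) to 17.9% (X:73358099, 28 reads). A fragment that covers several of these sites is counted more than once, which the interval does not allow for. Over all listed sites with at least 20 reads the shares were 0% (48 reads), 26.1% (134), 4.35% (92) and 15.8% (120), so day 29 was below day 36 there. The day 36 value included X:73356493, listed in that library alone with 18 of 20 reference reads. Fibroblast-variant sites with at least 20 reads gave 1.79% (56 reads) for day 36. The 0 of 48 reads at day 18 allow a share of up to 6.25% (3 counts).

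**Figure D4:**
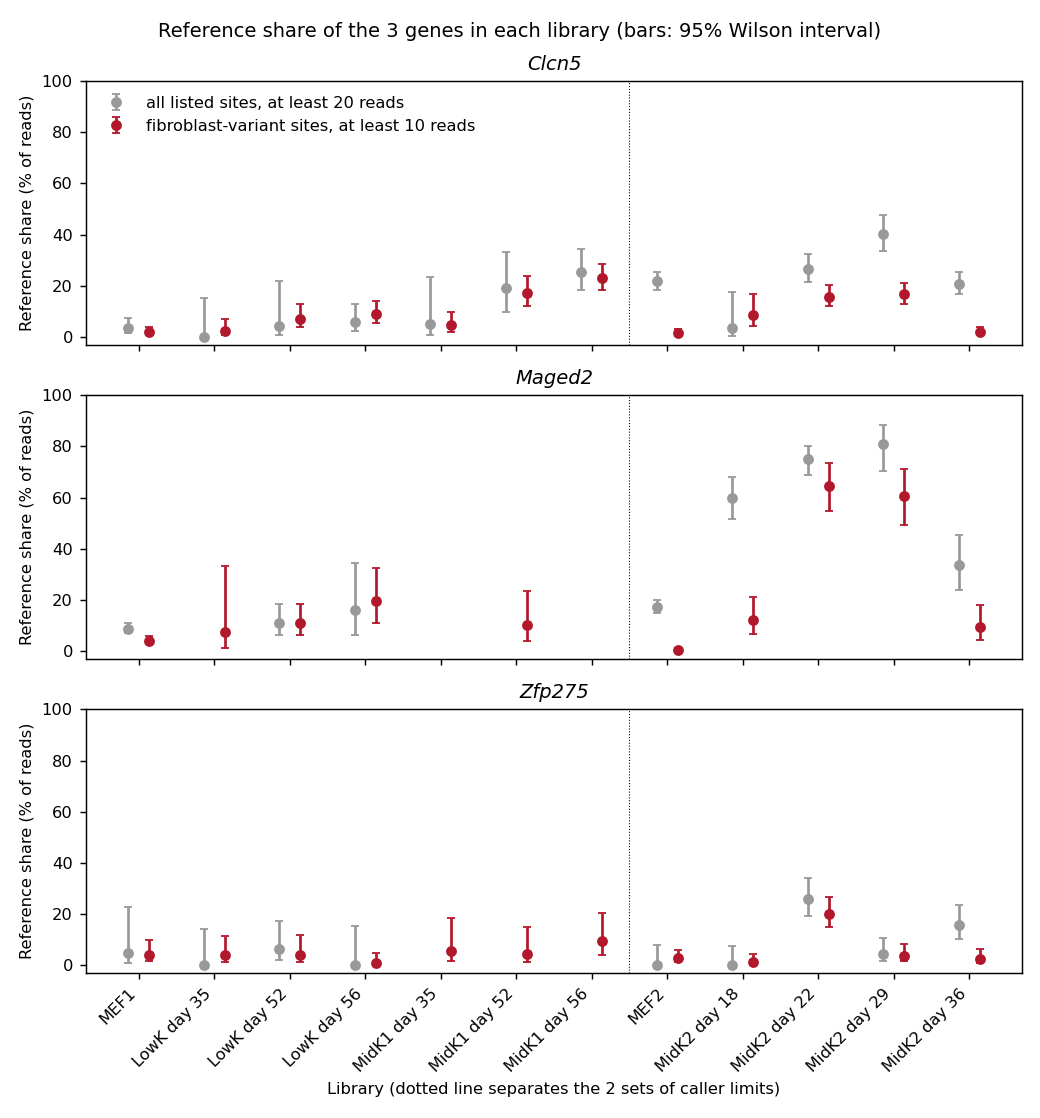
Reference share (%) of Clcn5, Maged2 and Zfp275 in the 12 libraries with 95% Wilson intervals, over all listed sites with at least 20 reads (grey) and over fibroblast-variant sites with at least 10 reads (red). Maged2 reaches 64.6% and 60.8% at MidK2 days 22 and 29 (red), Clcn5 15.8% and 16.7%, and Zfp275 20.2% at day 22 only.

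The 3 genes were not alone in this course. At sites with at least 20 reads in all 4 MidK2 libraries, 142 of 268 genes (53.0%) had both middle days above both outer days, and the median difference between the means of the middle and the outer days was 3.37 points. Differences of at least 20 points were seen in 2 genes (0.746%), Maged2 at 55.2 points and Msn, the membrane and cytoskeleton linker moesin, at 22.2 points. Msn is named because it was the other gene past that size. Zfp275 (17.1 points) ranked 4 and Clcn5 (13.2 points) 14 of the 268, each from 1 site. With at least 10 reads per site they ranked 29 and 47 of 340, at 12.1 and 8.85 points, and Maged2 again ranked 1, at 51.9 points. At fibroblast-variant sites with at least 20 reads the median share of the other genes was 2.40% at day 18, 7.67% at day 22, 6.33% at day 29 and 1.49% at day 36, and 0.747% in MEF2.

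**Figure D5:**
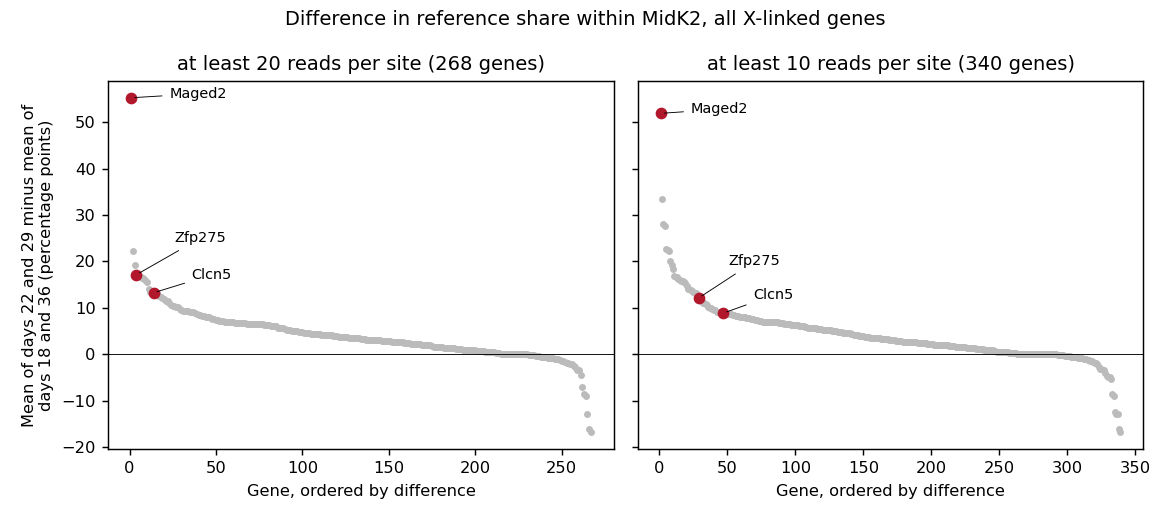
Mean reference share of MidK2 days 22 and 29 minus that of days 18 and 36, in percentage points, for every X-linked gene with sites in all 4 libraries, in order of size. Maged2 stands apart at 55.2 and 51.9 points, and Zfp275 and Clcn5 lie within the upper slope of the other genes.

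Pair by pair over all genes, at a difference of at least 20 points with a Benjamini-Hochberg adjusted p under 0.05 by Fisher's exact test, the share of genes that differed from MEF2 was 2.65% at day 18, 9.63% at day 22, 9.94% at day 29 and 10.4% at day 36. Between neighbouring days it was 2.46% from day 18 to 22, 0.714% from day 22 to 29 and 1.38% from day 29 to 36. These are the background to the members' own differences, which are not tested. Day 22 minus day 18 was 33.0 points in Maged2, 30.4 in Zfp275 and 2.49 in Clcn5, with a median of 3.56 over all genes. At sites listed in both libraries, day 22 minus MEF2 was 56.0 points in Maged2, 15.1 in Zfp275 and 13.4 in Clcn5. Day 29 minus MEF2 was 54.5, 8.33 and 25.7 points. Day 36 minus MEF2 was 10.8 points in Maged2, 0 in Zfp275 and -1.09 in Clcn5, and day 18 minus MEF2 was 7.43 points in Maged2 and 3.57 in Clcn5. The Maged2 differences from MEF2 at days 18, 22 and 36, and that of day 22 from day 18, include sites that were not mainly variant in fibroblasts. Day 36 minus day 29 was -50.7 points in Maged2, -24.0 in Clcn5 and -3.83 in Zfp275. Day 29 minus day 22 was -25.0 points in Zfp275, -7.95 in Maged2 and 5.71 in Clcn5. The comparisons of this paragraph share libraries.

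The LowK and MidK1 libraries were sampled at days 35, 52 and 56, later than all but 1 MidK2 day, so no day matches days 22 or 29. Of 30 tests of a member between 2 of these libraries or MEF, 15 had a shared site with at least 20 reads, 9 of them in Clcn5, and 1 passed both limits. That was Clcn5 in MidK1 at day 56 against MEF1, with 14 of 59 reference reads (23.7%) against 1 of 53 (1.89%), a difference of 21.8 points (95% Newcombe interval 9.74 to 34.2, Fisher's exact test, adjusted p = 0.00161). In that comparison 14.1% of all genes passed. The Clcn5 call did not pass with the single site of highest coverage (25.1 points, Fisher's exact test, adjusted p = 0.0765) or with the mean of site shares (19.7 points). At day 52 the difference from MEF1 was 19.0 points (7.34 to 33.3, 8 of 42 against 0 of 48 reads, Fisher's exact test, adjusted p = 0.0059), just under the size limit, where 12.9% of genes passed. At day 35 it was 5 points (-8.12 to 23.6, Fisher's exact test, adjusted p = 0.714), with 8.5% of genes passing.

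Clcn5 was thus also read from the reference allele late in the MidK1 course, where fibroblast-variant sites with at least 10 reads gave 4.76% at day 35 (126 reads), 17.1% at day 52 (158 reads) and 23.1% at day 56 (264 reads). LowK had 2.48% (121 reads), 7.20% (125 reads) and 8.94% (179 reads) at the same days. At shared sites MidK1 minus LowK was 25.5 points at day 52 (2.29 to 47.7, 6 of 20 against 1 of 22 reads, adjusted p = 0.115 by Fisher's exact test) and 17.0 points at day 56 (5.38 to 27.9, 19 of 82 against 4 of 65 reads, adjusted p = 0.0175), so neither passed both limits, against 8.61% and 8.64% of all genes. No site with at least 20 reads was shared at day 35. Taking days as units over all listed sites, the mean was 16.5% ± 10.5 (SD, n = 3) in MidK1 and 3.48% ± 3.08 (SD, n = 3) in LowK, a difference of 13.0 points (two-sided exact permutation test, p = 0.2, smallest possible 0.1). Days of 1 course are not separate cultures.

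No test of LowK against MEF1 that could be run passed both limits in the 3 genes (none could be run for Maged2 at day 35 or Zfp275 at day 56), while 1.23%, 1.76% and 4.91% of genes passed at days 35, 52 and 56. Maged2 had a reference share of 11.2% at day 52 (12 of 107 reads over 4 sites) against 4.09% in MEF1, a difference of 7.13 points (2.10 to 14.6, Fisher's exact test, adjusted p = 0.0317). At day 56 it was 4 of 25 reads (16.0%), 12.1 points above MEF1 (1.57 to 30.9, Fisher's exact test, adjusted p = 0.104). At fibroblast-variant sites with at least 10 reads LowK day 56 had 19.6% (11.02 to 32.5, 51 reads), set beside the 64.6% and 60.8% of MidK2 days 22 and 29, which are other days. Clcn5 in LowK minus MEF1 was 0 points at day 35 (-15.5 to 15.5, 0 of 21 reads in each). It was 4.55 at day 52 (-8.46 to 21.8) and 3.57 at day 56 (-3.17 to 12.2). Zfp275 in LowK minus MEF1 was -4.76 points at day 35 (-22.7 to 10.1, 0 of 23 against 1 of 21 reads). At day 52 it was -0.595 points (-18.8 to 16.0, 1 of 24 against 1 of 21 reads).

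Coverage limited the other comparisons. No Maged2 site reached 20 reads in any MidK1 library or in LowK at day 35, and no Zfp275 site did in MidK1. With at least 10 reads at fibroblast-variant sites, Maged2 had 4 reference reads of 39 in MidK1 at day 52 (10.3%, 4.06 to 23.6). Zfp275 had 5.71% (35 reads), 4.55% (44 reads) and 9.62% (52 reads) in MidK1 at days 35, 52 and 56 and 4.11% (73 reads), 4.23% (71 reads) and 0.909% (110 reads) in LowK. Put in order of level, each of these 6 Zfp275 values has an interval that overlaps the next. The difference of means was 3.54 points (two-sided exact permutation test over days, p = 0.1, the smallest possible).

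MEF1 and MEF2 gave 0% of 174 genes past both limits by Fisher's exact test, with 61 at an unadjusted p under 0.05 and 53 at an adjusted p under 0.05. MEF2 minus MEF1 was 0.41 points in Clcn5 (-4.38 to 4.21), -1.66 in Maged2 (-4.45 to 1.14) and -4.76 in Zfp275 (-22.7 to 11.2, 21 reads in each). At these shared sites the fibroblast shares were 1.05% and 1.46% in Clcn5, 8.86% and 7.20% in Maged2, and 4.76% and 0% in Zfp275. The Maged2 sums include X:150806874, which was not mainly variant in fibroblasts. At its fibroblast-variant sites with at least 20 reads MEF2 minus MEF1 was -3.61 points (0.478% against 4.09%, Fisher's exact test, adjusted p = 6.63e-05). These sites were chosen for a low reference share in the same MEF libraries, so a 20-point difference could not arise there. At such sites the median share of the other genes was 3.06% in MEF1 and 0.747% in MEF2. Over all 174 genes, at all shared sites, the median of MEF2 minus MEF1 was -1.70 points.

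Genes expressed in fibroblasts were read over the same days, and their courses differed. The list of fibroblast-expressed X-linked genes had 15 of 19 members measured at sites in all 4 MidK2 libraries, with a median difference of 8.65 points between middle and outer days against 3.37 over all genes, and 1 of 15 (Msn) at 20 points or more. At fibroblast-variant sites the median share of the listed genes was 5.80% at day 18, 17.4% at day 22, 18.6% at day 29 and 5.68% at day 36. Their summed coverage per 100000 X-linked site reads was 6257, 6685, 7566 and 5486 on these days, against 47235 in MEF2. Shares of single genes below are instead over all sites with at least 20 reads in all 4 MidK2 libraries, whether or not mainly variant in fibroblasts. Of the defining genes with the highest coverage, Bgn, a matrix proteoglycan, had 68.6%, 89.5%, 90.8% and 80.4%. Flna, an actin crosslinker, had 6.81%, 25.1%, 22.6% and 8.21%. Tmsb4x, an actin-binding peptide gene, had 9.30%, 23.2%, 23.4% and 28.5%, highest at day 36. Sat1 was also highest at day 36 (23.9%), with 0.92 points between middle and outer days, as was Plp2 (62.1%), with -12.96 points, and Gpc3 had -1.44 points. The part of fibroblast-like cells in the members' course was not tested.

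The other lists were read in the same way. In the MAGE family 2 of 18 genes could be measured, Maged2 and Maged1, whose shares were 4.77%, 16.5%, 16.2% and 1.52% on the 4 days (13.2 points). Among genes of endosome and lysosome acidification and traffic 10 of 15 were measured, with a median of 8.40 points and none at 20. Ocrl, a phosphatase gene of the endosomal pathway linked with Clcn5 in kidney disease and named after its values were seen, had 0%, 13.6%, 22.7% and 2.78% (16.8 points). Lamp2, a lysosomal membrane protein, had 13.0%, 28.2%, 26.1% and 24.0%, and the proton pump subunit gene Atp6ap1 had 20.7%, 25.9%, 24.4% and 14.7%. Atp6ap2, which belongs to the same pump, had 7.65%, 14.4%, 17.5% and 17.0%, and the pump assembly factor gene Vma21 had 0.637%, 2.06%, 3.03% and 0.425%.

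In the zinc finger list 6 of 19 genes were measured, with a median of 3.82 points and none at 20. Zrsr2 had 11.8%, 17.2%, 15.4% and 8.43%, and Zmym3 had 0.995%, 2.67%, 3.16% and 0.308%. Genes that escape X inactivation, 9 of 14 measured, had a median of 0.635 points, with Ddx3x at 49.4%, 52.5%, 59.2% and 59.2%. Widely expressed genes, 14 of 16 measured, had a median of 3.02 points, with Rps4x at 1.92%, 4.67%, 4.65% and 3.25%. The pluripotency and germline list had 2 of 15 measured, Tfe3 (7.63%, 15.4%, 23.6% and 33.6%) and Rhox5 (4.14%, 14.1%, 9.08% and 0.686%). Tfe3 was highest at day 36, and Rhox5 was highest at day 22 as Zfp275 was. The trophoblast list had 2 of 6 measured (median -0.943 points), the X-inactivation centre list 1 of 8 (1.18 points), and the blood and endothelial list 0 of 10. In MidK1 against LowK at day 56, 1 of 9 acidification genes, 1 of 6 zinc finger genes, 1 of 11 fibroblast genes and 0 of 1 MAGE genes passed both limits in the upward direction, and none downward, against 8.64% of all genes.

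Genes near the members followed several courses. Plp2, the nearest measured gene to Clcn5 (349 kb), had 17.3%, 20.4%, 32.9% and 62.1% on the 4 MidK2 days in order. On either side of Maged2, Tmem29 (347 kb) had 8.73%, 18.5%, 21.7% and 30.7%, and Gnl3l (169 kb) had 4.43%, 10.7%, 3.22% and 0.701%. Beside Zfp275, Nsdhl (384 kb) had 1.85%, 9.23%, 6.63% and 0.337%, and Haus7 (78.2 kb, 1 site) had 2.27%, 13.0%, 13.0% and 0%. Plp2 and Tmem29 were highest at day 36, and the other 3 were highest at day 22 or at days 22 and 29.

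Each member was set against 189 genes with at least 30 reads in each reprogrammed library, by the mean absolute difference in share. The members themselves could have fewer reads, such as 20 for Clcn5 in MidK1 at day 35 and 25 for Maged2 and 21 for Zfp275 in LowK at day 56. Clcn5 was nearest to Msn (4.84 points, 10 libraries), Atp6ap2 (5.75) and Pcsk1n (5.89). Zfp275 was nearest to Psmd10 (4.29 points, 7 libraries), Tbl1x (4.66) and Gnl3l (4.73). Maged2 had no close match: Utp14a was 17.6 points away over 6 libraries, Kdm6a 18.7 and Med14 18.9. Utp14a and Kdm6a are on the escape list. Utp14a had 46.6 to 49.0% and Kdm6a 48.8 to 70.7% on the MidK2 days. Maged2 entered this measure with 60.0%, 75.1%, 80.8% and 33.8% on those days. At fibroblast-variant sites with at least 10 reads it had 12.3%, 64.6%, 60.8% and 9.33%, so its nearness to genes on the escape list depends on the site set. The MidK2 libraries, on which the members were chosen, are among those compared. These distances use all listed sites, share libraries and depend on depth, and are a description.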

How the data were processed

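Poly(A) RNA of 12 libraries was read as tables of X-linked variants. Per the labels, the authors called these variants with CLC Genomics Workbench (Basic Variant Call), and the build was mm10 according to the submitters' processing notes. Which aligner and caller limits they used is not given in the sources used here. Every variant comes, per the file headers, with a count of reads that carry it, a count of reads that cover it and the percent of the first in the second. Neither deposited count is normalised. The percent equalled 100 times the ratio of the counts to within 5.04e-09 points.

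Single-base sites with at least 20 reads were kept, the better supported allele at a position (69 second alleles dropped), and a site naming several genes went to the one whose GENCODE M21 exon it lies in. Reads were summed over the sites of a gene. Pairs of libraries were compared at shared sites by a two-sided Fisher's exact test (SciPy 1.17.1, Python 3.11.15) with Benjamini-Hochberg adjustment over all genes of the pair. A gene passed at an adjusted p under 0.05 and 20 points. The test was checked on simulated data with independently drawn reads, so that check does not cover fragments that span several sites. Shares have 95% Wilson intervals, and differences Newcombe intervals. Depth was 138579 to 279031 reads per library over such sites, and intervals cover counting error only, since fragments can cover several sites.

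The members and lists were chosen with earlier results of these data known. Genes named are the 3 members, the 3 nearest in share to each, the nearest measured gene on each side, and genes of highest coverage in each list. Ocrl, Sat1, Gpc3 and the single sites printed were named after their values were seen. Alternatives were minimum coverages of 10 and 50, single sites, mean site shares, coding or untranslated sites, fibroblast-variant sites and leaving out days. Caller limits were inferred from the lowest listed values. By these, libraries of MEF1, LowK and MidK1 form 1 set and those of MEF2 and MidK2 the other, so courses of different sets were not tested against each other.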

Additional observations from a re-analysis of the deposited data

Results flagged for a closer look

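The Maged2 3-base deletion lies outside the single-base sites on which the comparisons rest. Reads without it stood above the fibroblast level in MidK2 at day 22 (43.8% of 32 reads), day 29 (73.3% of 15 reads) and day 36 (42.9% of 21 reads), against 12.7% of 79 reads in MEF2. The difference was not tested. Day 36 was high at the deletion and low at the 4 single-base sites (9.33%). The part of read alignment around the deletion was not tested.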

How the results depend on the processing

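The difference between the means of MidK2 days 22 and 29 and of days 18 and 36 was 21.3 points in Clcn5, 31.1 in Maged2 and 7.32 in Zfp275 over all listed sites with at least 20 reads. With at least 10 reads Clcn5 had 11.7 and Zfp275 3.88. A single site, sites in all 4 libraries, or those also in MEF2, gave 55.2 in Maged2 and 13.2 in Clcn5, and the first 2 gave 17.1 in Zfp275. Fibroblast-variant sites, added after the data were seen, gave 53.1 in Maged2 and 14.3 in Zfp275 with at least 20 reads, and 51.9 in Maged2 and 10.9 in Clcn5 with at least 10. Leaving out 1 day at a time gave 12.8 to 29.9 in Clcn5 and 18.0 to 44.2 in Maged2. In Zfp275 it gave -3.57 to 18.2, with the sign turned to -3.57 without day 22 and to -0.60 without day 18. Clcn5 in MidK1 against MEF1 passed at day 52 with a single site (30 points) and did not pass at day 56 with a single site (25.1 points) or the mean of site shares (19.7 points). Signs turned in comparisons that passed in no setting: Zfp275 in LowK day 52 minus MEF1 was 2.70 points with at least 10 reads, at all or fibroblast-variant sites, and Clcn5 in MEF2 minus MEF1 was -1.84 and -0.64. For these the cause was not tested. Taking the day as a replicate block (exact sign-flip test) left Clcn5 in MidK1 minus LowK at 13.0 points, with p = 0.25, the smallest possible. Of 139 alternative values of 19 results, 113 kept their direction and, for a test, its side of the limits, or, for MidK2 values without a test, lay within the 95% interval of the value over all listed sites. Part of the 113 used the same sites as the value they were set against and could not differ. Examples over the MidK2 days are untranslated sites in Clcn5 (21.3 points) and coding sites in Maged2 (31.1 points). Comparisons resting on 1 site likewise repeat their difference with a single site or the mean of site shares. The count is therefore not a measure of robustness. At least 50 reads gave a value for Maged2 between the MEF libraries only, and coding sites none for Clcn5 and Zfp275.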
